A study of Bos taurus with 32 samples.

Results

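Glutathione S-transferases and FMO2 were examined in the endometrium of repeat breeder (RB) and non-RB cows. The members were the array probes named for a glutathione S-transferase in the files, the probe that the study lists as GSTA3, and the probe for FMO2. They came to 11 genes read by 12 probes, of 15208 probes on the array other than controls. A further probe that the study lists as GSTM1 carries a clone name in the files and was not a member, so it was not examined. GSTA3 and FMO2 had been selected because their measured levels differed between RB and non-RB cows. Their values in that comparison are therefore given as a description, with no test. The other 9 genes, read by 10 probes, are called relatives here and were tested.

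Glutathione S-transferases join the tripeptide glutathione to reactive or fat-soluble molecules, which can then be exported from the cell. The cytosolic enzymes fall into classes named by Greek letters, the kappa enzyme lies in mitochondria, and the MGST enzymes sit in membranes. Alpha class enzymes are abundant in liver and in steroid-producing tissue, and GSTA3 is known in mammals for a steroid isomerase step in hormone synthesis. FMO2 is a flavin-containing monooxygenase, which adds oxygen to nitrogen and sulfur atoms of foreign compounds before such conjugation.

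All animals were non-lactating Japanese Black cows killed on Day 15 of the estrous cycle. RB cows had failed to conceive after repeated inseminations, and non-RB cows had conceived and had then cycled again after the pregnancy was ended with a prostaglandin. Caruncular (CAR) endometrium, where the placenta attaches, and intercaruncular (ICAR) endometrium, which holds most glands, were sampled in both uterine horns, the ipsilateral one lying on the side of the corpus luteum. This gave 4 RB and 4 non-RB cows and 32 single-colour arrays, 1 for each cow, area and horn, with the same replicate number within a group taken as the same cow. The 75th percentile of the intensity ran from 1165 to 4857 units over the arrays, with 74.3% to 85.8% of probes well above background, and precision is limited by how many arrays there were. Levels are log2 intensities after scaling to the 75th percentile, so that a level of 0 equals that percentile and 1 unit is a doubling. Epithelial markers of endometrium, KRT8, EPCAM and the uterine serpin SERPINA14, were well above background on 32 of 32 arrays. Whole tissue was used, in which fewer cells of a type and less RNA per cell cannot be told apart.

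The 60-base probes of the alpha class members and of FMO2 are printed below as the scanner files list them, because the contrast between GSTA3 and its relatives rests on these probes reading different transcripts. Capitals mark the longest run of bases that each probe shares with the GSTA3 probe on the same strand.
GSTA3: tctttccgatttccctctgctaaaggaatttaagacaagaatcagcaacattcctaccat
GSTA2: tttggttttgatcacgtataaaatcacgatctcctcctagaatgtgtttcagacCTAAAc
GSTA4: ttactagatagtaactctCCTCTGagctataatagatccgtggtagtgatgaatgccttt
FMO2: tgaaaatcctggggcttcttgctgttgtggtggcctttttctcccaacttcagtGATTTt
The GSTA2 probe shared at most 5 bases in a row with the GSTA3 probe and the GSTA4 probe at most 6. Over the whole array, the longest run that any other probe shared with the GSTA3 probe on either strand was 13 bases, in 1 probe. The files name the GSTA3 probe MGC140790, a hypothetical protein, and the name GSTA3 comes from the study. In the RefSeq annotation of cattle (ARS-UCD2.0), GSTA2, GSTA1, GSTA5, GSTA3 and GSTA4 follow each other in that order. Runs shared between probes do not show which transcripts a probe binds. No member probe was named for GSTA1 or GSTA5. Whether transcripts of these paralogs, or of GSTA2 and GSTA4, bind the GSTA3 probe was not tested.

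GSTA3 was higher in RB than in non-RB cows in the mean of each compartment, and its 32 arrays covered a wider range, from -8.01 to 0.13, than those of any relative. In CAR of the ipsilateral horn the 4 RB cows had levels of -2.18, -1.62, -3.04 and -4.04 and the 4 non-RB cows -8.01, -5.90, -5.80 and -6.48, in the order of replicates 1 to 4. The RB mean was -2.72 ± 1.06 (SD, n = 4) against -6.55 ± 1.02 (SD, n = 4), a 14.2-fold difference, and the groups did not overlap. The level of -8.01, in non-RB replicate 1, was not well above background, while the other 31 arrays were. The summed linear level of 9 glandular epithelium probes, in units of the 75th percentile, also stood apart in this compartment, at 8.17 to 15.5 in RB and 15.9 to 38.3 in non-RB cows, while in CAR of the contralateral horn it was 7.04 to 20.6 and 10.4 to 37.4. In the whole uterus the median RB minus non-RB difference of these 9 probes was -0.0 on the log2 scale. At an unadjusted p under 0.05 in limma, 1 of them was higher in RB cows and 0 lower, against 2.21% of all probes. The part of glandular cells in the GSTA3 difference was not tested. With a normexp background correction the difference in this compartment was 2.28 instead of 3.83 on the log2 scale.

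In CAR of the contralateral horn the RB cows had GSTA3 levels of -1.90, -2.09, -2.24 and -5.32, and the non-RB cows -7.80, -4.78, -6.28 and -6.64. RB replicate 4 lay inside the range of non-RB cows, and the difference of the means was 3.49, or 11.2-fold. Among all probes tested, the groups did not overlap for 1.97% in CAR of the ipsilateral horn, 1.37% in CAR of the contralateral horn, 2.23% in ICAR of the ipsilateral horn and 1.48% in ICAR of the contralateral horn.

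In ICAR the groups overlapped, and 1 non-RB cow stood far above the other 3. In the ipsilateral horn the RB cows had -0.65, -1.58, -2.78 and -5.07, and the non-RB cows -0.59, -4.43, -5.51 and -6.98. In the contralateral horn the RB cows had -4.83, -1.67, -3.61 and -4.83, and the non-RB cows 0.13, -7.09, -5.74 and -6.57. Non-RB replicate 1, which had the lowest GSTA3 levels of all cows in CAR, had the highest of all in ICAR of both horns. The RB difference was 1.86 in ICAR of the ipsilateral horn and 1.08 in that of the contralateral horn, and it was 3.12 and 2.73 without non-RB replicate 1. It was also unstable to other cows, at 0.99 without non-RB replicate 4 and 1.24 without RB replicate 1 in the ipsilateral horn, and at 0.32 and 0.49 without non-RB replicates 2 and 4 and 0.39 without RB replicate 2 in the contralateral horn.

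**Figure D1:**
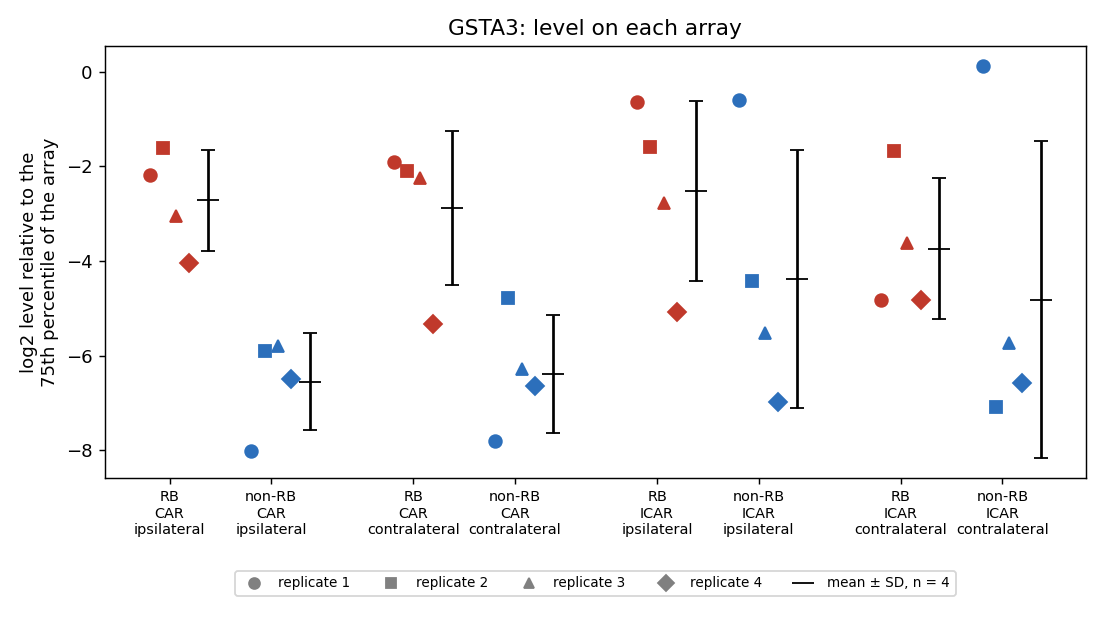
Level of GSTA3 on each of the 32 arrays, as log2 intensity with 0 at the array's 75th percentile (vertical axis), for RB (red) and non-RB cows (blue) in each area and horn. Symbols mark the replicate, and black bars are the mean ± SD of 4 cows. In CAR the non-RB cows sit between -8.01 and -4.78, while in ICAR non-RB replicate 1 lies at -0.59 and 0.13, above the other non-RB cows.

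Averaged over the 4 compartments, RB cows had a mean GSTA3 level of -2.97 ± 1.32 (SD, n = 4), against -5.53 ± 1.08 (SD, n = 4) in the non-RB group, a difference of 2.56 or 5.92-fold. Of 16 RB arrays, 12 were above the highest of the 14 non-RB arrays other than ICAR of replicate 1, which ran from -8.01 to -4.43. Of the 4 RB arrays that were not, 3 belonged to RB replicate 4 and 1 was ICAR contralateral of RB replicate 1. The 2 non-RB arrays left out of this count, at -0.59 and 0.13, were above every RB array, of which the highest was -0.65. The count is a description over arrays that share cows. The order of the group means from high to low was RB ICAR ipsilateral (-2.52), RB CAR ipsilateral (-2.72), RB CAR contralateral (-2.89), RB ICAR contralateral (-3.74), non-RB ICAR ipsilateral (-4.38), non-RB ICAR contralateral (-4.82), non-RB CAR contralateral (-6.38) and non-RB CAR ipsilateral (-6.55). Each neighbouring pair in this order differed by less than the SD of either group except at the step from non-RB ICAR contralateral to non-RB CAR contralateral, where the difference exceeded the SD of the CAR group but not that of the ICAR group.

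Slides and groups were only partly separate. Slides 6 and 8, of 8 slides, held arrays of both groups from the same compartment. On slide 6, which held RB replicate 4 and non-RB replicate 3, RB was higher in GSTA3 by 0.96 in CAR contralateral, 0.44 in ICAR ipsilateral and 0.91 in ICAR contralateral. On slide 8 RB replicate 1 was higher than non-RB replicate 1 by 5.90 in CAR contralateral. It was higher than non-RB replicate 2 by 3.78 in ICAR ipsilateral and 2.26 in ICAR contralateral. In CAR of the ipsilateral horn no slide held both groups, and with the slide as a random block the difference was 3.67.

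None of the relatives passed the test that compared RB with non-RB cows. In limma, 0 of 10 relative probes passed an adjusted p of 0.05 in any compartment or in the whole uterus, and 0 of 10 had an unadjusted p under 0.05 in any of them. The methods' t-test also called 0 after adjustment, and at an unadjusted p under 0.05 it gave 1 relative, in CAR contralateral. Among all probes tested, 0.0% passed the adjusted threshold in each of these 5 comparisons. The share with an unadjusted p under 0.05 was 3.41% in CAR ipsilateral, 1.74% in CAR contralateral, 3.69% in ICAR ipsilateral, 1.6% in ICAR contralateral and 2.21% in the whole uterus. In no compartment did the arrays of RB and non-RB cows stand apart without overlap for any relative. The median difference of the 10 relative probes in the whole uterus was 0.11, against 0.01 for all 12919 probes tested, with a range of -0.36 to 0.47.

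Among the alpha class, GSTA2, a broad-range conjugating enzyme, had lower means in RB cows in all 4 compartments, opposite to GSTA3, but none of these differences passed the test. Its levels in CAR ipsilateral were -2.43, -3.36, -3.02 and -0.98 in RB cows and -2.90, -0.97, -2.16 and -1.70 in non-RB cows. RB replicate 4, which had the lowest whole-uterus GSTA3 level among RB cows, had the highest GSTA2 level among them, at -0.79 in the whole uterus. Over the whole uterus RB cows averaged -2.02 ± 1.03 (SD, n = 4) for GSTA2, against -1.66 ± 0.15 (SD, n = 4) in the non-RB group. This difference of -0.36 had a 95% interval of -1.35 to 0.62 and an adjusted p of 1.0 in limma.

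GSTA4, an alpha class enzyme that conjugates products of lipid peroxidation, averaged 1.86 ± 0.33 (SD, n = 4) over the whole uterus of RB cows, against 1.87 ± 0.41 (SD, n = 4) in the non-RB group. Its difference of -0.01 had a 95% interval of -0.57 to 0.55. RB cows had the higher mean in CAR ipsilateral (0.39) and ICAR contralateral (0.06) and the lower mean in CAR contralateral (-0.09) and ICAR ipsilateral (-0.40).

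Of the cytosolic enzymes of other classes, GSTM1 had a whole-uterus difference of 0.26 (95% interval -0.17 to 0.69), GSTP1 of 0.11 (-0.23 to 0.44) and GSTT1 of 0.06 (-0.29 to 0.40). GSTP1 is the pi class enzyme found in most epithelia, and its 32 arrays stayed between 2.38 and 3.54. The mitochondrial GSTK1 came closest to the threshold, in CAR contralateral. There the RB cows had levels of -2.67, -2.42, -2.54 and -3.23 and the non-RB cows -2.88, -3.60, -3.33 and -3.39. The difference was 0.59 with a standard error of 0.26, an unadjusted p of 0.0514 and an adjusted p of 1.0 in limma. The exact permutation test gave 0.0571, where 0.0286 is the smallest two-sided p that 4 against 4 arrays allow. In CAR ipsilateral the GSTK1 means of both groups were -2.97.

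The membrane-bound enzymes showed the largest whole-uterus difference among relatives in MGST1, a detoxifying enzyme of endoplasmic reticulum and outer mitochondrial membrane. RB cows averaged 0.09 ± 0.37 (SD, n = 4), against -0.38 ± 0.62 (SD, n = 4) in the non-RB group, a difference of 0.47 (95% interval -0.24 to 1.19) with an adjusted p of 1.0 in limma. RB means were above non-RB means by 0.49, 0.62 and 0.80 in CAR contralateral, ICAR ipsilateral and ICAR contralateral, and level with them in CAR ipsilateral (-0.01). MGST3, which acts on lipid hydroperoxides, had RB means above non-RB means by 0.08 to 0.19 in all 4 compartments, with a whole-uterus interval of -0.24 to 0.47.

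MGST2, which can make leukotriene C4, was read by 2 probes that disagreed on 1 array. Probe ABR5344 was at -3.88 in non-RB replicate 2 of CAR contralateral, against -0.50 to 0.71 on the other 31 arrays, while probe A_73_105555 stayed between -0.64 and 1.80 on all 32. That array and ICAR contralateral of non-RB replicate 1 were the pair on slide 1, and their signal was uneven, with an SD over repeated spots of a single sequence of 1.32 and 0.869. The difference of 0.92 that ABR5344 gave in CAR contralateral rests on that array, and A_73_105555 gave -0.18. The GSTA3 level of 0.13 in non-RB replicate 1 was also measured on slide 1, while its level of -0.59 in the ipsilateral horn came from slide 3.

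**Figure D2:**
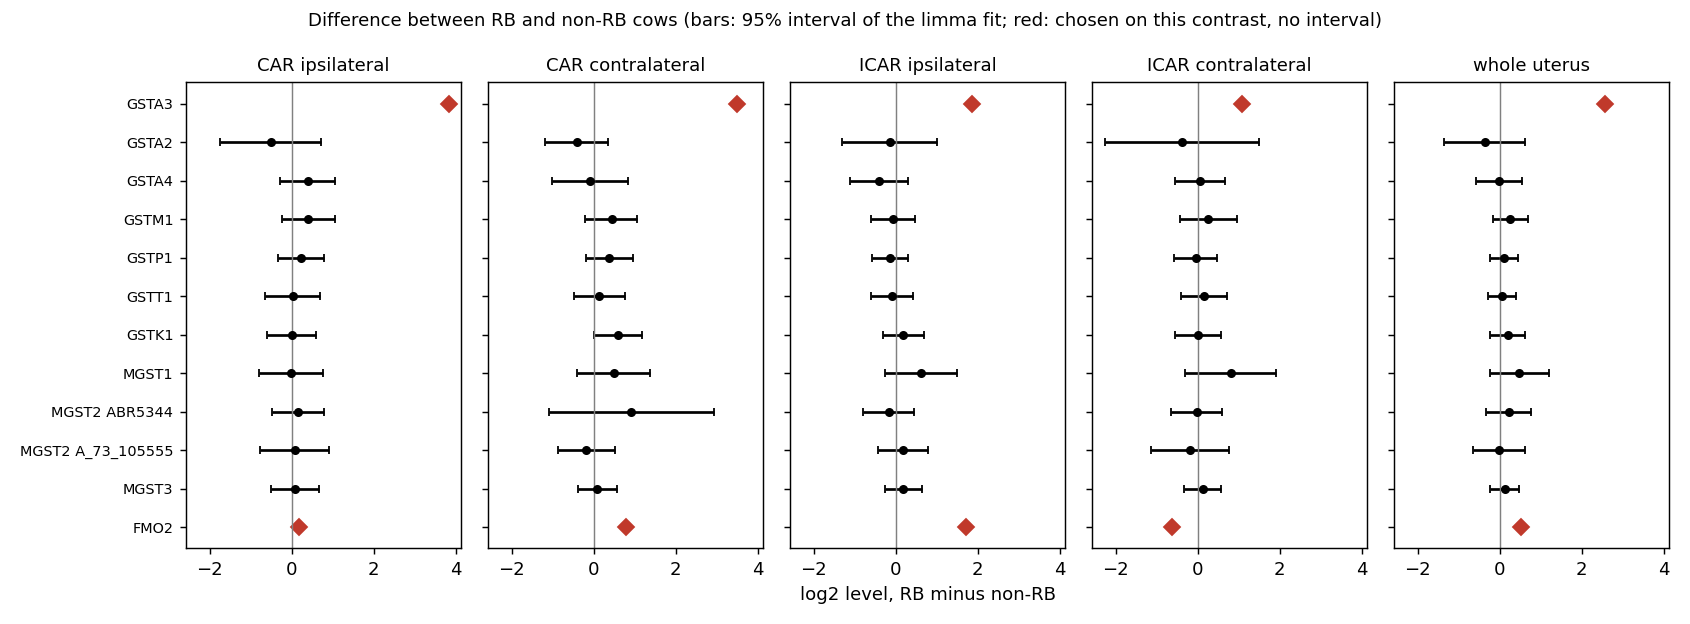
Difference in log2 level between RB and non-RB cows (horizontal axis) for each probe, in the 4 compartments and in the whole uterus. Black points and bars are the relatives with the 95% interval of limma, and red diamonds are GSTA3 and FMO2, which were selected on this contrast and have no interval. Every interval of a relative includes 0, and the GSTA3 differences run from 1.08 to 3.83.

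Cow by cow, GSTK1 had the highest correlation with GSTA3 among the relatives. Over the 8 cow means its Pearson r was 0.78 and its Spearman rho 0.71, and r was 0.66 without the 2 cows farthest from the GSTA3 median. GSTA2 had an r of -0.61 and a rho of -0.48, with r = -0.37 without those 2 cows. GSTA4 had an r of -0.12 and a rho of 0.05. These values span both groups and so carry the group difference for which GSTA3 was selected, and they are a description with no test, since 4 cows a group are too few for a correlation within groups. The other 7 relative probes had r between 0.02 and 0.52.

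**Figure D3:**
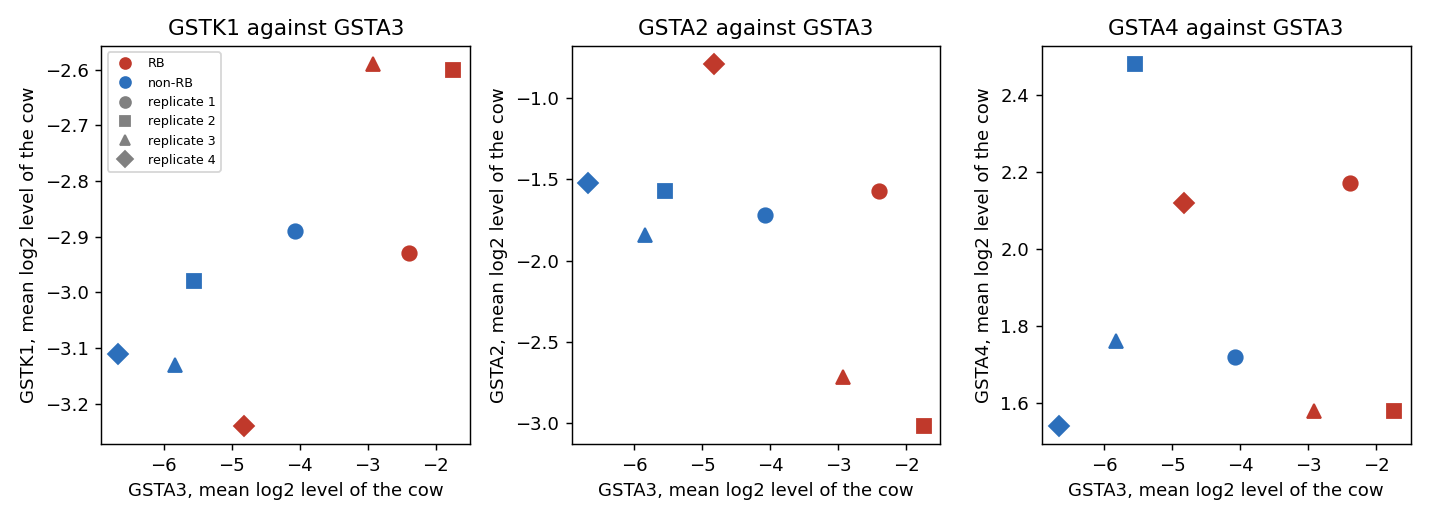
Mean log2 level of each of the 8 cows over 4 compartments for GSTK1, GSTA2 and GSTA4 (vertical axes) against GSTA3 (horizontal axes), with RB cows in red, non-RB cows in blue and a symbol for each replicate. GSTK1 rises with GSTA3 (r = 0.78), GSTA2 runs the other way (r = -0.61) and GSTA4 shows neither (r = -0.12), over cows of both groups together and with no test.

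CAR and ICAR were compared over all 32 arrays to ask whether the relatives share the compartment pattern of GSTA3. In limma 174 of 12919 probes passed an adjusted p of 0.05, or 1.35%, of which 50 were higher in CAR, and 16.2% had an unadjusted p under 0.05. No probe of the array was called on leaving out any of 6 cows (RB replicates 1, 2 and 4 and non-RB replicates 1, 3 and 4), without slide 1, in the methods' t-test or over the 8 within-cow differences. In contrast, 716 were called without non-RB replicate 2, 908 without RB replicate 3 and 1086 with the cow (group and replicate number) as a block. Every call between the areas given below is subject to these losses. Of the 12 member probes 1 passed, FMO2, and 0 of the 10 relative probes did, of which 2 had an unadjusted p under 0.05. GSTA3 was -4.63 in CAR and -3.86 in ICAR, a difference of -0.77 with a standard error of 0.65 and an adjusted p of 0.635. That mean rests on non-RB replicate 1, whose CAR minus ICAR difference was -7.68, the lowest of all 12919 probes in that cow. The other 7 cows had differences between -0.42 and 0.70. Without non-RB replicate 1 the mean difference was 0.22.

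No relative had a difference of that size in non-RB replicate 1. Its CAR minus ICAR difference was -1.75 for GSTA2, 0.04 for GSTA4, -0.24 for GSTK1 and -0.69 for GSTP1, and it lay between -0.48 and 0.50 for the other 6 relative probes. FMO2 was at -2.51 in this cow. The GSTA2 value resembled that of RB replicate 1, which was at -1.63.

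GSTA4 was 2.08 in CAR and 1.66 in ICAR, a difference of 0.42 with a standard error of 0.16. It was higher in CAR in 7 of 8 cows, with an unadjusted p of 0.0151 and an adjusted p of 0.172 in limma and 0.0391 in an exact sign-flip permutation test over the 8 cows. GSTT1, the theta class enzyme, was 3.15 in CAR and 2.87 in ICAR, higher in 5 of 8 cows, with an unadjusted p of 0.0252 and an adjusted p of 0.22 in limma. GSTA2 had a difference of -0.44 with an adjusted p of 0.542. The remaining 7 relative probes had differences between -0.23 and 0.04.

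**Figure D4:**
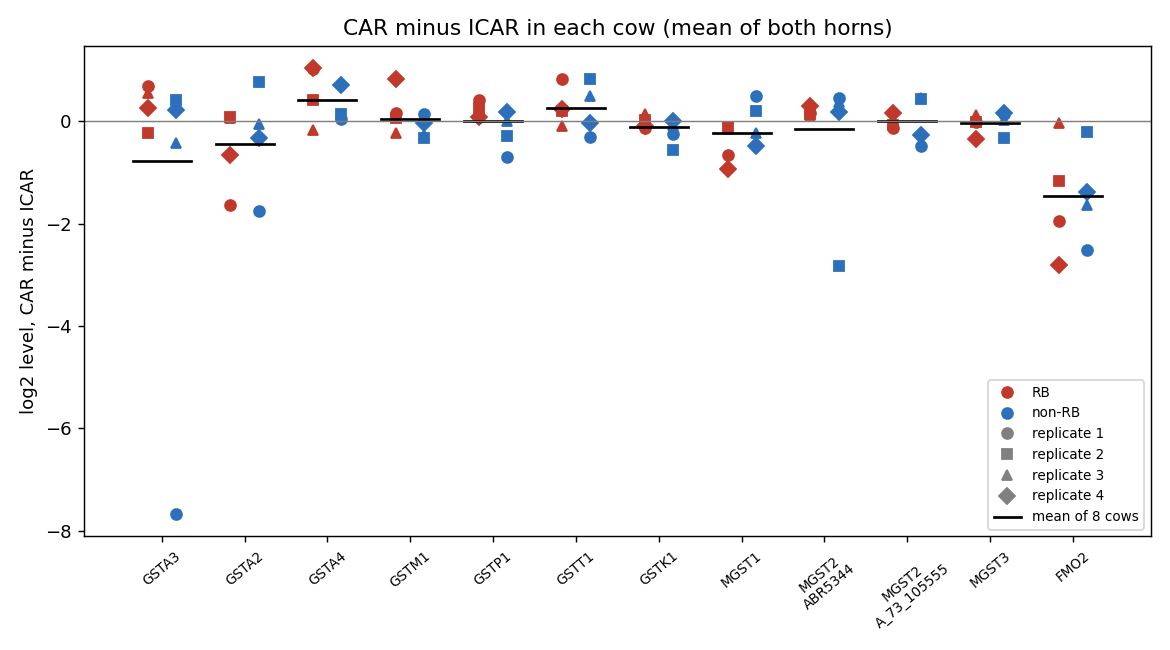
CAR minus ICAR difference in log2 level (vertical axis) of each member probe in each cow, averaged over both horns, with RB cows in red and non-RB cows in blue, symbols for replicates and black lines for the mean of 8 cows. FMO2 lies below 0 in all 8 cows, and the GSTA3 mean of -0.77 is drawn down by 1 cow at -7.68.

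FMO2 was higher in ICAR than in CAR. Its mean level was -1.09 in ICAR and -2.55 in CAR, a difference of -1.46 with a standard error of 0.37 and an adjusted p of 0.0414 in limma. CAR was lower in all 8 cows, with differences of -2.80 to -0.04, and the exact sign-flip permutation test gave 0.00781, the smallest p that 8 cows allow. The call was near its threshold, and the fit over 32 arrays has no term for the cow. It was lost over the 8 within-cow differences (adjusted p = 0.101), without the arrays of slide 1 (adjusted p = 0.0574) and on leaving out any of 6 cows, namely RB replicates 1, 2 and 4 and non-RB replicates 1, 3 and 4 (adjusted p up to 0.297), with differences of -1.67 to -1.27. Within RB cows the difference was -1.49 and within non-RB cows -1.44. The study lists FMO2 as raised in RB cows in ICAR of the ipsilateral horn. Those arrays are part of the ICAR side of this comparison, so the test is not independent of how FMO2 was selected.

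Some glandular and ciliated markers were also lower in CAR. Of 9 glandular epithelium probes 3 were lower in CAR at an adjusted p under 0.05, for FOXA2 (-1.69), SPDEF (-1.92) and BPIFB1 (-2.11), and of 6 ciliated cell probes 2 were, CAPS (-1.22) and RSPH1 (-1.82). Of the other glandular probes, SPP1 (0.21) and SERPINA14 (0.07) had higher means in CAR, and LTF, CLDN3 and MUC1 did not pass. The median CAR minus ICAR difference was -0.37 over the glandular list, -1.27 over the ciliated list and 0.44 over 9 stromal probes, against 0.02 for all probes. The summed level of the glandular list was 7.04 to 38.3 over CAR arrays and 6.62 to 37.7 over ICAR arrays, and each of its probes was well above background on some array. The part of these cells in the FMO2 difference was not tested.

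Between RB and non-RB cows, FMO2 differed mainly in ICAR of the ipsilateral horn, the compartment in which its values are described here without a test. There the RB cows had 0.27, -0.72, 0.16 and 0.04 and the non-RB cows -0.15, -2.16, -2.96 and -1.85. Non-RB replicate 1 lay within the RB range, and the difference of the means was 1.72 or 3.29-fold. In ICAR of the contralateral horn the RB cows had -1.10, -1.40, -3.52 and -0.23 and the non-RB cows 0.90, -1.16, -1.70 and -1.79. The difference there was -0.63, and it was -0.01 without non-RB replicate 1 and 0.03 without RB replicate 3. In CAR the difference was 0.18 in the ipsilateral horn, turning to -0.17 without non-RB replicate 3 and -0.04 without RB replicate 2. It was 0.80 in the contralateral horn, where it was 0.19 without RB replicate 3, 0.38 without non-RB replicate 3 and 0.55 without non-RB replicate 4.

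FMO2 on slide 6 was higher in RB replicate 4 than in non-RB replicate 3 by 0.93 in CAR contralateral, 3.0 in ICAR ipsilateral and 1.47 in ICAR contralateral. On slide 8 RB replicate 1 minus non-RB replicate 1 was -0.26 in CAR contralateral. RB replicate 1 minus non-RB replicate 2 was 2.43 in ICAR ipsilateral and 0.06 in ICAR contralateral. With the slide as a block the difference in ICAR contralateral was 0.77 and with the scan session as a block 0.89, opposite in sign to the value of -0.63 without a block.

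**Figure D5:**
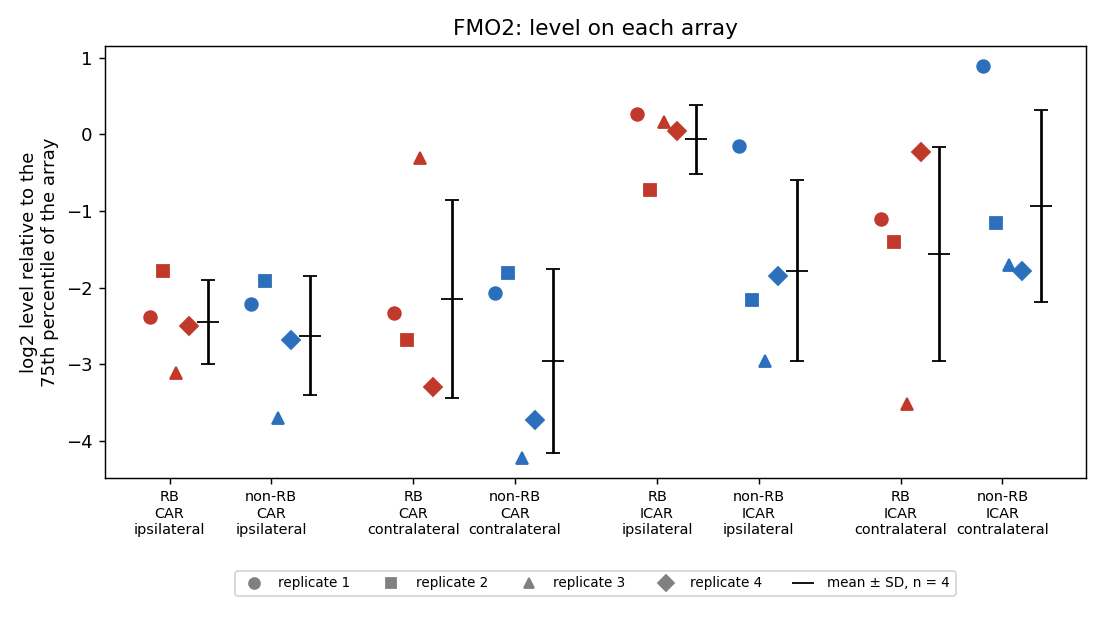
Level of FMO2 on each of the 32 arrays, as log2 intensity with 0 at the array's 75th percentile (vertical axis), for RB (red) and non-RB cows (blue) in each area and horn, with symbols for replicates and the mean ± SD of 4 cows. RB cows in ICAR ipsilateral lie between -0.72 and 0.27, above 3 of 4 non-RB cows, and the groups overlap in every compartment.

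For GSTA3 the mean CAR minus ICAR difference was 0.32 among RB and -1.86 among non-RB animals, a difference of 2.19 that was 0.25 without non-RB replicate 1. For FMO2 these means were -1.49 and -1.44, and the sign of their difference of -0.05 turned on leaving out non-RB replicate 2 (0.36), RB replicate 1 (0.10) or RB replicate 4 (0.39). When the RB effect was compared between CAR and ICAR, 0 of 10 relative probes had an unadjusted p under 0.05 in limma, and 0.0% of all probes passed after adjustment. The smallest p among relatives belonged to GSTP1, with a difference of 0.41 and an adjusted p of 1.0.

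The comparison of the ipsilateral with the contralateral horn gave no call. In limma 0 of 12 member probes passed an adjusted p of 0.05 or an unadjusted p of 0.05, and of all probes 0.0% passed after adjustment and 1.36% had an unadjusted p under 0.05. The methods' t-test called 0 members after adjustment. GSTA3 was -4.04 in the ipsilateral and -4.45 in the contralateral horn, higher ipsilaterally in 6 of 8 cows, with a difference of 0.41, a standard error of 0.65 and an adjusted p of 1.0. The relatives differed between horns by -0.16 to 0.20. For the RB effect between horns, 0 of 10 relatives had an unadjusted p under 0.05 and 0.0% of all probes passed after adjustment. FMO2 was higher ipsilaterally in all 4 RB cows, by 0.44 to 0.79, and in 1 of 4 non-RB cows, and its mean difference between horns was 0.60 for RB and -0.26 for non-RB animals.

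The probes most like GSTA3 over the 32 arrays were not glutathione S-transferases. Only 10 of the 12383 probes compared were relatives, so a top 5 without them is no result about relatives. The 5 with the highest Pearson r were A_73_111838, of unknown gene (0.79), LOC511138, a hypothetical gene (0.77), TRPM3, a calcium-permeable channel (0.75), LOC404062, an immunoglobulin light chain (0.74), and ABR4253, with no gene name (0.73). After the mean of each group and compartment was removed, the 5 highest were ABR5531, with no gene name (0.82), MNS1, a structural protein of cilia and meiotic nuclei (0.81), ABR4253 (0.79), ARL6IP2 (0.78) and A_73_112084, of unknown gene (0.78). These values are a description over arrays that share cows, horns and slides. The r over 32 arrays also carries the group difference for which GSTA3 was selected. Among members, GSTK1 (0.53) and FMO2 (0.47) had the highest r over the 32 arrays, and GSTA2 had -0.13. Among 12383 probes other than GSTA3, GSTK1 ranked 309 and FMO2 697 by this r. In the deviations the second MGST2 probe, A_73_105555, reached 0.54 and GSTK1 0.43. Without the 4 arrays of non-RB replicate 1 the r of GSTA2 was -0.46 and that of GSTK1 0.57. The 5 probes of highest r then had an r of 0.61 to 0.72, and of 0.36 to 0.68 in the deviations. The 5 highest in the deviations had 0.68 to 0.80 in the deviations without those arrays.

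Markers of B and plasma cells, to which the immunoglobulin probe belongs by function, also ran unevenly over the cows. Its 4 probes had a summed level of 2.18 to 5.61 in RB and 0.329 to 5.48 in non-RB cows in CAR ipsilateral, and of 1.54 to 6.85 and 0.407 to 4.42 in CAR contralateral. In non-RB replicate 1 the sum was 0.368 in CAR and 8.58 in ICAR, in the same direction as GSTA3. The ciliated list in that cow was 3.69 in CAR and 9.43 in ICAR, and its luminal and glandular epithelium list 37.8 and 61.6. Its list of glandular epithelium alone was 33.6 and 34.3. Stroma (132.0 in CAR and 76.1 in ICAR), smooth muscle (15.8 and 9.27) and macrophages (3.64 and 1.91) were lower in ICAR in that cow. So were T and NK cells (3.76 and 2.29) and endothelium (2.87 and 2.49). Red blood cells were at 0.55 and 0.649, and liver and steroid-producing cells at 8.09 and 8.52. Of 3 B and plasma cell probes tested between RB and non-RB cows in the whole uterus, 0 had an unadjusted p under 0.05 in limma. Their median difference was -0.05, and JCHAIN, the chain that joins secreted immunoglobulins, had a difference of 1.44 with a standard error of 0.72. Of 10 probes for liver and steroid-producing cells, where alpha class enzymes are abundant, LHCGR was well above background on 0 of 32 arrays, ALB on 6 and SERPINA1 on 7, while STAR, APOA1 and FGB were so on 32. Between RB and non-RB cows 0 of the 7 tested had an unadjusted p under 0.05. No probe of any marker list passed an adjusted p of 0.05 between RB and non-RB cows in the whole uterus in limma. Of all probes 0.0% passed there, and 2.21% had an unadjusted p under 0.05. The part of any of these cells in the GSTA3 levels was not tested.

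The lists for the rest of glutathione metabolism gave no call between RB and non-RB cows, like the array as a whole. Of all probes, 0.0% passed after adjustment in the whole uterus and 2.21% had an unadjusted p under 0.05 in limma. Counts of 0 in lists of this size are near these shares. Of 12 probes tested for glutathione synthesis and recycling, 0 passed an adjusted or an unadjusted p of 0.05 in the whole uterus in limma, and their median difference was -0.09, against 0.01 for all probes. The smallest p values, with differences given here and below as estimate ± standard error, belonged to PGD, which makes NADPH (-0.39 ± 0.22), ANPEP, a surface peptidase (0.33 ± 0.26), and GCLM, the modifier subunit of the enzyme that starts glutathione synthesis (-0.23 ± 0.19). Of 15 probes for glutathione peroxidases and other glutathione users, 0 passed either threshold, with a median of 0.15. Those with the smallest p were CLIC1 (-0.37 ± 0.21), the secreted peroxidase GPX3 (-0.41 ± 0.25) and ESD (0.29 ± 0.24).

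NRF2 is the transcription factor that induces many of these enzymes under oxidative stress. Among 16 probes for NRF2, its inhibitor KEAP1 and its targets, 0 passed after adjustment. At an unadjusted p under 0.05, which 2.21% of all probes reached, 2 were lower in RB cows and 0 higher, the aldehyde reductase AKR1A1 (-0.59 ± 0.23) and the transketolase TKT (-0.50 ± 0.22), both with an adjusted p of 1.0. AKR1B1 followed with 0.36 ± 0.20. The probe of NRF2 itself, NFE2L2, had a difference of -0.03, NQO1 of 0.16 and HMOX1 of -0.07. The median over the list was -0.05.

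Of 18 probes tested for flavin monooxygenases and other phase I enzymes, 1 had an unadjusted p under 0.05 between RB and non-RB cows, against 2.21% of all probes, CYP4B1 (1.33 ± 0.55, adjusted p = 1.0), which was well above background on 12 of 32 arrays. ARNT (0.45 ± 0.27) and CYP3A4 (0.43 ± 0.38) came next. Among 9 probes for other conjugating enzymes 0 passed, and those with the smallest p were HNMT, which methylates histamine (0.48 ± 0.21), SULT1A1 (0.27 ± 0.18) and GLYAT (-0.43 ± 0.41). Of 17 probes for steroid synthesis and metabolism 0 passed, led by the cholesterol carrier STAR (-0.65 ± 0.31), CYP11A1 (0.61 ± 0.39) and HSD17B10 (-0.33 ± 0.22). The medians of these 3 lists were -0.06, 0.02 and -0.11.

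Between CAR and ICAR, 3 genes of these lists passed the adjusted threshold, against 1.35% of all probes, and each was lower in CAR. They were not called in the settings that left no call on the array. ALDH1A1, which makes retinoic acid, differed by -0.93 (adjusted p = 0.0369), ACSM1 of the glycine conjugation route by -1.47 (adjusted p = 0.0379) and the aldo-keto reductase AKR1C4 by -1.62 (adjusted p = 0.0397). None of the 12 synthesis, 15 peroxidase or 16 NRF2 probes passed after adjustment, and at an unadjusted p under 0.05 they gave 2, 3 and 2 probes, a share near the 16.2% of all probes. The 18 phase I, 9 other conjugating and 17 steroid probes gave 7, 3 and 2 at that threshold. Each of these lists held 1 of the adjusted calls. The phase I and conjugating lists lay above the share of all probes, and no list was tested as a set.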

How the data were processed

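RNA of 32 endometrial samples was read on single-colour 60-mer bovine arrays. The authors deposited the scanner output of Agilent Feature Extraction 9.5, per the labels, whose processed intensity has the background of the spot removed and no normalization between arrays. A table of log2 values deposited by the authors equals the same intensity scaled by the 75th percentile of the array plus a small constant of the array. Controls and spots flagged as outliers were dropped, and the 75th percentile of the array was subtracted on the log2 scale. Probes that rose well above background on 2 of 8 arrays of a compartment, or 8 of 32 arrays, or more were fitted with limma 3.58.1 in R 4.3.3 and adjusted by Benjamini-Hochberg over all probes tested. RB and non-RB cows were compared over 4 against 4 arrays, in the whole uterus over the 8 cow means, CAR with ICAR and the horns over 32 arrays with group and the remaining factor as terms, and differences of the RB effect over differences within each cow. Exact permutation tests used Python 3.11.15. The fits were tested on simulated data.

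The members, gene lists and tests were chosen with earlier results of these data known. All members are accounted for. Named in full are GSTA3, FMO2, the alpha class, members with an unadjusted p under 0.05 or a call, the 5 probes most like GSTA3 by each measure and the 3 genes of smallest p of each list, and other genes were named after their values were seen. Probes took symbols from the file names, accessions or gene IDs through a RefSeq table. Labels do not say that a replicate number marks a cow, and p-values measure the spread between these samples.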

Additional observations from a re-analysis of the deposited data

Results flagged for a closer look

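In 168 sets of 4 values (each member probe in each group, and its cow means and differences in RB and in non-RB cows), 10 held a value far from the others, and chance gives about 1 in 20. For GSTA3 these were the level of -5.32 in RB replicate 4 of CAR contralateral, against -2.24 for the nearest RB cow, and the CAR minus ICAR difference of -7.68 in non-RB replicate 1, against -0.42 for the nearest. Probe ABR5344 of MGST2 was at -3.88 in non-RB replicate 2 of CAR contralateral, which also set its CAR minus ICAR difference of -2.83 in that cow. GSTP1 stood apart at 2.5 in non-RB replicate 1 and at 3.48 in RB replicate 1, both in CAR ipsilateral. GSTK1 was at -2.54 in non-RB replicate 2 of ICAR ipsilateral. The CAR minus ICAR difference of GSTA4 was 0.72 in non-RB replicate 4. Between the horns, ipsilateral minus contralateral, MGST1 was at 1.06 in non-RB replicate 1 and GSTT1 at 0.33 in RB replicate 1.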

How the results depend on the processing

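The count of 0 relatives past the adjusted threshold between RB and non-RB cows held under every alternative run, in the 4 compartments and the whole uterus, as did the 0 members between horns and the 0 relatives for both differences of the RB effect, and leaving out each cow gave 0 each time. In each of these settings at most 1 probe of the whole array passed. The counts of 0 could therefore hardly change and are no sign of stability. The count of 1 member called between CAR and ICAR became 0 with normexp, without slide 1, with the methods' t-test and with 8 within-cow differences. It was also 0 within RB cows and within non-RB cows. With the cow as a block the count was 2, and leaving out each cow gave 0 to 1. FMO2 there had -1.35 (adjusted p = 0.0507) with normexp, -1.38 (0.0574) without slide 1, -1.46 (0.0602) in the methods' t-test, -1.46 (0.101) over within-cow differences, -1.49 (0.279) within RB and -1.44 (0.886) within non-RB cows, and -1.67 to -1.27 without each cow. GSTA4 passed with the cow as a block, at 0.42 (adjusted p = 0.037). This pairing is uncertain: same-numbered arrays deviated together in 22 of 24 pairs within RB and 21 of 24 within non-RB at a correlation over 0.1. In the RB comparisons the replicate number was the block, and each number held 1 RB and 1 non-RB array of a compartment. Such a block cannot change the RB differences of GSTA3 (3.83, 3.49, 1.86 and 1.08), so it is no check on them. With it 0 relatives were called. With normexp the RB difference of GSTA3 moved to 2.28 in CAR ipsilateral, 2.33 in CAR contralateral, 1.27 in ICAR ipsilateral, 0.42 in ICAR contralateral and 1.57 in the whole uterus, and with the scan session as a block it was 0.88 in ICAR ipsilateral. Its CAR minus ICAR difference turned to 0.32 within RB cows. FMO2 turned to -0.20 in CAR ipsilateral with the scan session as a block, and to 0.77 and 0.89 in ICAR contralateral with the slide and the session as a block, while the slide as a block gave 2.72 in ICAR ipsilateral. Leaving out each cow gave GSTA3 3.34 to 4.27 in CAR ipsilateral, 3.01 to 4.30 in CAR contralateral, 0.99 to 3.12 in ICAR ipsilateral, 0.32 to 2.73 in ICAR contralateral, 2.16 to 3.18 in the whole uterus, -0.98 to 0.22 for CAR against ICAR and 0.25 to 2.95 for the difference between areas. For FMO2 the ranges were -0.17 to 0.42 in CAR ipsilateral, -1.07 to 0.03 in ICAR contralateral and -0.54 to 0.39 for the difference between areas. The likeness of ARL6IP2 to GSTA3 was 0.51 over arrays and 0.78 in the deviations. The causes were not tested. Leaving out the 4 arrays of non-RB replicate 1 from the likeness was chosen after seeing the data.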
